A study of Rattus norvegicus with 32 samples.

Results

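Genes that are commonly read as markers of Schwann cells and of the myelin they make were followed through the 4-day estrous cycle in the mammary gland of the rat. They were Sox10, Mbp, Pmp22, Prx, Mal and S100b, and every array feature (probe set) whose platform symbol was 1 of these names was taken, whatever its values. This gave 9 probe sets for 6 genes, out of 31042 probe sets on the array other than controls: 3 for Mbp, 2 for Pmp22 and 1 for each of the others. Each of the 31 rats was a virgin, untreated Sprague Dawley female and gave 1 Affymetrix Rat 230 2.0 array of mammary gland with the lymph nodes removed. Days 1, 2 and 3 of the cycle held 8 rats each and day 4 held 7, killed between hour 7 and hour 88.1 of the cycle, all in the daytime. No hour was sampled in more than 1 rat, so the rats of a day are not replicates of 1 time point. The limma p-values below set differences against the spread between rats, and those of the correlations come from reordering the rats. The limma fits allowed for cycle day and clock hour, while the correlations and the study's own test used the values as they were. The array of hour 40 was left out, as the study did.

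Schwann cells are the glia of peripheral nerves, and they reach the mammary gland with the sensory and sympathetic fibres that run along its ducts, its vessels and the nipple. Myelinating Schwann cells wrap an axon in layers of membrane that are compacted by proteins such as Mbp and Pmp22, while non-myelinating ones hold bundles of thin axons without myelin. None of the 6 genes is restricted to these cells: Sox10 is also made in mammary epithelium, S100b in fat cells, Pmp22 in fibroblasts and epithelia, Mal in polarized epithelia and lymphocytes, Prx in the endothelium of some tissues, and the Mbp locus also yields transcripts in blood cells.

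All 9 probe sets were above background. Their medians over the 31 rats lay between 49.7 for Mal and 4923 for S100b, in GC-RMA intensity, a linear unit of brightness that cannot be set against that of another probe set, and none fell under the median of 10 that was taken as near background. All 9 also reached 10 on every array, the filter for testing, as did 21068 probe sets in all. The array medians differed little, from 49.9 to 54.7.

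Not all other genes of Schwann cells and myelin were above background. Of 35 further genes on 4 lists (myelin proteins, Schwann lineage regulators and receptors, non-myelinating Schwann cell, myelin lipid synthesis), 30 had a probe set with a single symbol. The rest are not analysed here. Of the 30, each read by its brightest probe set, 20 were above background, beside 22943 of all 31042 probe sets. They were 6 of 9 myelin protein genes, 8 of 10 lineage regulators and receptors, 4 of 7 genes of non-myelinating Schwann cells and 2 of 4 of myelin lipid synthesis. Among the myelin protein genes, Cnp, an enzyme of non-compact myelin that many other cells also make, had a median of 800, and Gjb1, a connexin of myelin and of epithelia, had 44.0. Pllp, a membrane protein of myelin, had 28.8, while Drp2, Cldn19 and Nfasc, at 13.7, 11.4 and 11.2, lay just above the limit. Egr2, a transcription factor of myelination that is also induced in many other cells, had a median of 464. The 10 near background included Pmp2 (median 8.04), a fatty acid carrier of myelin, Mag (median 8.14), an adhesion protein of the innermost myelin layer, and Ugt8 (median 7.44), which makes the myelin lipid galactosylceramide. Gfap, which non-myelinating Schwann cells and astrocytes make, had a median of 4.33.

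Genes of non-myelinating Schwann cells and of the lineage were also measured well above that level. Scn7a, a sodium channel of non-myelinating Schwann cells, ran from 184 to 661 with a median of 316. Gap43, a growth-cone protein of axons and immature Schwann cells, ran from 68.4 to 499 with a median of 197. Erbb3, the neuregulin receptor of Schwann cells and of epithelia, ran from 84.4 to 171 with a median of 121. Lgi4, a secreted factor that Schwann cells need to sort axons, had a median of 58.6. All 6 oligodendrocyte genes, among them Mog, Olig1 and Olig2, were near background, with medians from 4.66 to 7.37. Of 8 axon genes 4 were near background (Nefl, Nefm, Nefh and Uchl1), while Stmn2, a microtubule protein of growing axons, had a median of 193. The medians of Prph, Tubb3 and Th were 14.6, 15.2 and 14.5. Since none of the 6 genes is restricted to Schwann cells, the label is used here for the rule by which they were chosen, and not for the cells that made the RNA.

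**Figure D1:**
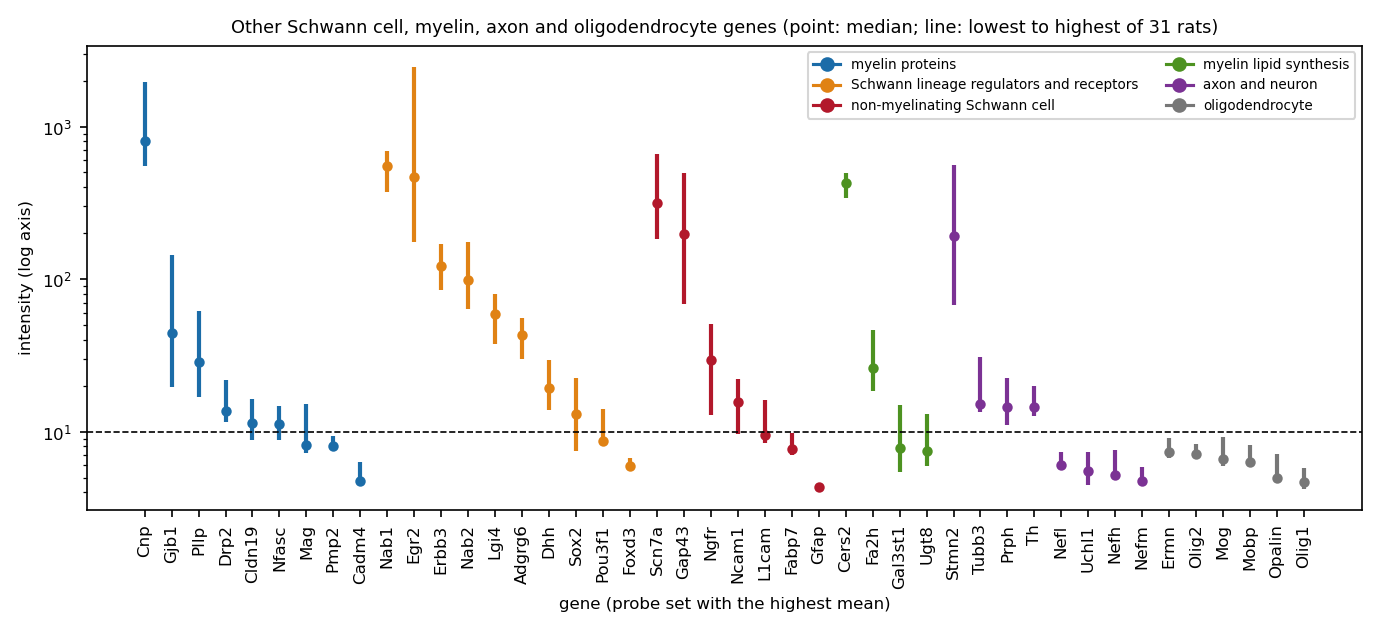
Intensity (log axis) of the measured genes of 6 fixed lists, each by the probe set with the highest mean; points are medians and lines run from the lowest to the highest of 31 rats. The dashed line is an intensity of 10: all 6 oligodendrocyte genes and 4 of 8 axon genes have their median under it, and levels of different genes are not to be compared with each other.

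Sox10 is the transcription factor that sets up and keeps the Schwann cell lineage and that switches on Mbp, Pmp22 and Prx in nerve. Its intensity ran from 225 in the rat of hour 79.3 to 818 in the rat of hour 17.6, a 3.64-fold range, with a median of 418. The lowest, median and highest of day 1 were 280, 412 and 818. Those of day 2 were 306, 462 and 697.
The days overlapped throughout. The values of day 3 were 269, 520 and 595, and those of day 4 were 225, 348 and 604. On day 4 the other rats were at or under 383, and the rat of hour 86.3 stood apart at 604.

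Mbp, myelin basic protein, holds the inner faces of the myelin membrane together, and its 3 probe sets did not tell 1 story. The brightest, called leading below, ran from 308 to 554 with a median of 401. The second brightest ran from 123 in the rat of hour 57 to 465 in the rat of hour 14.6, with a median of 249. The third of them ran from 45.3 to 168 with a median of 78.5.
The second and the third followed each other over the rats (Pearson r = 0.85), while the leading one followed neither (r = 0.22 and 0.26). These r values and the others between probe sets of a gene are descriptions over the same 31 rats. A gene is represented below by its brightest probe set, a rule that for Mbp picked the one that went its own way, so the second is given beside it, a choice made after its values were seen. The files do not say which Mbp transcripts each of the 3 reads.

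Pmp22 is a membrane protein of compact myelin whose dosage is critical in inherited neuropathies, and it is also made by connective tissue cells. Its leading probe set ran from 2599 in the rat of hour 7.5 to 4668 in the rat of hour 31.6, with a median of 3647. The second ran from 460 in the same rat of hour 7.5 to 1189 in the rat of hour 65.6, with a median of 842. The 2 probe sets ranked the rats alike (r = 0.94).

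Prx, periaxin, is a scaffold that links the Schwann cell membrane to its skeleton and to the matrix outside the myelin. Its intensity ran from 45.8 in the rat of hour 7.5 to 90.9 in the rat of hour 86.3, with a median of 61.6. The 4 day medians lay between 57.7 and 63.8, and the days overlapped.

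S100b is a calcium-binding protein, used as a stain for Schwann cells and also present in fat cells. Its intensity ran from 2595 in the rat of hour 17.6 to 6600 in the rat of hour 13.2, with a median of 4923. Day 1 gave a lowest, median and highest of 2595, 5273 and 6600. Day 3 gave 2734, 3489 and 5408.
Day 3 held the lower median, yet its range lay inside that of day 1. Day 2 gave 2723, 5046 and 6421, and day 4 gave 3140, 5346 and 6505.

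The spread between rats was wide for most of the 9 probe sets. The standard deviation of log2 intensity over the 31 rats was 0.51 for Mal, 0.46 for Sox10, 0.43 for S100b and 0.43 and 0.42 for the second and the third probe sets of Mbp. It was 0.37 for the second probe set of Pmp22, 0.25 for Prx, 0.23 for the leading probe set of Pmp22 and 0.21 for the leading one of Mbp. The median over all tested probe sets was 0.24, so 7 of the 9 were above it, and 94.1% of tested probe sets varied less than Mal. After cycle day and clock hour were fitted, the residual standard deviation was 0.40 for Mal, 0.44 for Sox10, 0.42 for S100b and 0.42 for the second Mbp probe set, beside a median of 0.23 over all tested probe sets.

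**Figure D2:**
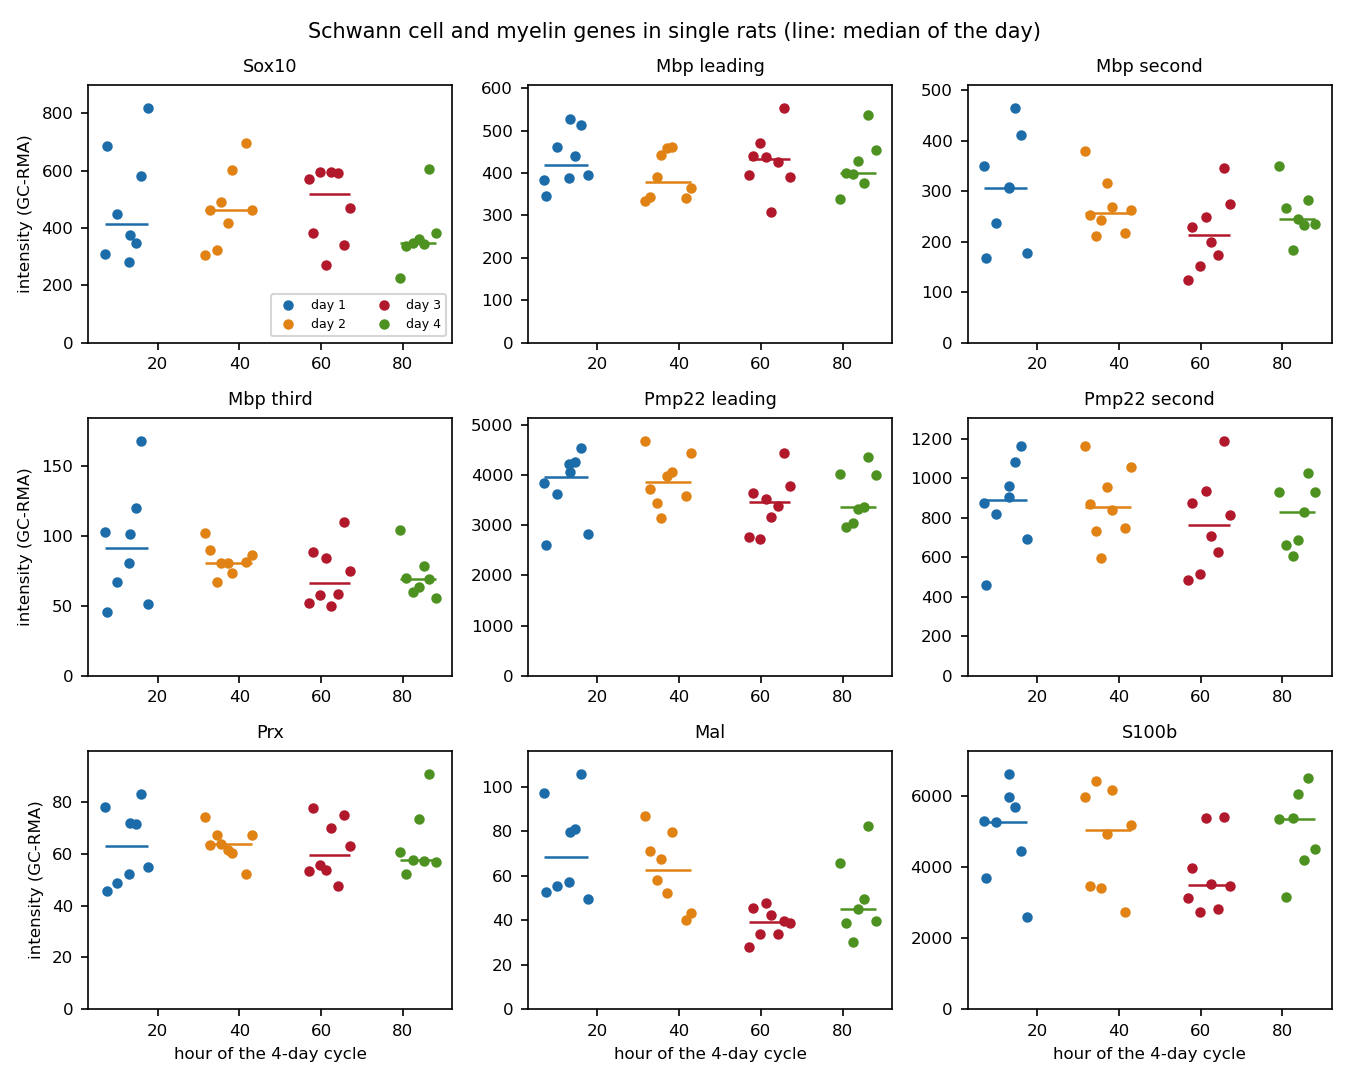
GC-RMA intensity of the 9 probe sets against hour of the cycle, 1 point a rat, coloured by cycle day, with a line at the median of each day. Mal is the panel in which a day separates: its 8 rats of day 3 lie between 27.9 and 47.6, under the 8 rats of day 1, which lie between 49.7 and 106.

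Mal was the only member called in a comparison of cycle days. It encodes a small membrane protein with 4 spans that belongs to myelin and to the lipid-rich carriers that bring proteins to the apical side of epithelial cells. The lowest, median and highest intensities of day 1 were 49.7, 68.4 and 106. Those of day 2 were 40.1, 62.7 and 86.9, and those of day 3 were 27.9, 39.1 and 47.6.
Every rat of day 1 was therefore above every rat of day 3, while days 2 and 4 overlapped with both. Day 4 gave 30.1, 44.9 and 82.5. With clock hour in the fit, Mal fell by 0.84 (SE 0.19) on the log2 scale from day 1 to day 3, which is 1.79-fold lower (limma, adjusted p = 0.0271 over all tested probe sets). In that comparison 0.721% of the 21068 tested probe sets were called lower and 0.403% higher, and Mal was 1 of the 9 member probe sets called.

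The test of any difference among the 4 days did not reach the threshold for Mal after adjustment (limma, adjusted p = 0.0747). In that test 0 of 9 member probe sets were called, beside 0.574% of tested probe sets, and 1 had an unadjusted p under 0.05, as had 10.9% of tested probe sets. The neighbouring days, which share rats with the comparison of day 3 with day 1, gave 0 calls among the 9 by limma in each case. From day 2 to day 3 Mal had a log2 difference of -0.64 (SE 0.19, adjusted p = 0.156), and with arrays weighted by quality it was -0.72 and passed (adjusted p = 0.0453). The weighted fit called 148 of the 21068 tested probe sets higher and 241 lower there, beside 14 and 43 without weights. Without weights Mal alone of the 9 had an unadjusted p under 0.05, beside 12.7% of tested probe sets, with 0.271% called. For day 1 against day 4 its log2 difference was 0.56 (SE 0.20, adjusted p = 0.569), again 1 of 9 had an unadjusted p under 0.05, beside 6.47% of tested probe sets, and 0.0237% were called. For day 2 against day 1, and for day 4 against day 3, 0 of 9 had an unadjusted p under 0.05, beside 5.78% and 5.79% of tested probe sets, and the shares called over all probe sets were 0.00475% and 0%.

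From day 1 to day 3, 2 of the 9 probe sets, Mal among them, had an unadjusted p under 0.05, beside 13.8% of tested probe sets. The 8 probe sets other than Mal all had day 3 values below day 1 in the fit, but none passed. The nearest was the second Mbp probe set, with a log2 difference of -0.48 (SE 0.20, adjusted p = 0.271), and with arrays weighted by quality in the fit it was -0.74 (adjusted p = 0.0358). The weighted fit called 190 of all tested probe sets higher and 381 lower, beside 85 and 152 without weights. The lowest, median and highest intensities of the second Mbp probe set were 168, 307 and 465 in day 1 rats. In day 3 rats they were 123, 214 and 346, and the days overlapped. S100b had a difference of -0.36 (SE 0.20, adjusted p = 0.440), and the third Mbp probe set had -0.30 (SE 0.21, adjusted p = 0.537). The Pmp22 probe sets had -0.15 (SE 0.11) and -0.24 (SE 0.17). For Sox10 the difference was -0.039 (SE 0.21), for Prx -0.025 (SE 0.13) and for the leading Mbp probe set -0.045 (SE 0.11), each smaller than its SE. By their day medians Sox10 (412 on day 1, 520 on day 3) and the leading Mbp probe set (418 and 432) were higher on day 3. The median log2 difference over all tested probe sets was -0.0047.

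The call on Mal lay close to the threshold. Leaving out 1 rat of day 1 (hour 13.2, 14.6 or 16) or 1 of day 3 (hour 57 or 59.8) raised the adjusted p to between 0.0597 and 0.0931, with log2 differences from -0.81 to -0.73. Marker lists of other cell types overlapped between the same days, and no list was tested between them as a whole. Single list genes were called from day 1 to day 3, beside 0.403% of tested probe sets called higher and 0.721% lower. Cnn1, Tagln, Myh11 and Mylk were higher and Oxtr lower, of 10 basal and myoepithelial genes tested. Krt8 and Krt18 were higher and Prom1 lower, of 10 luminal genes. Cd163 was lower, of 11 macrophage genes, and Lum higher, of 9 fibroblast genes. No gene of the endothelium, lymphocyte, adipocyte or skeletal muscle lists was called. The macrophage list (11 of 11 genes measured, none near background) had rat means, as log2 deviations from the average rat, from -0.016 to 0.44 in day 1 rats and from -0.58 to 0.15 in day 3 rats. The endothelium list (9 of 10 measured, none near background) ran from -0.40 to 0.28 in the former and from -0.33 to -0.044 in the latter. The lymphocyte list (10 of 15 measured) ran from -0.85 to 0.27 in day 1 rats and from -0.90 to 2.31 in day 3 rats, with its B cell genes Cd79b and Ms4a1 near background by their medians. The basal and myoepithelial list (10 of 10 measured, none near background) ran from -0.45 to 0.12 in day 1 rats and from -0.27 to 0.37 in day 3 rats. When a list mean was added to the fit, the Mal difference kept its direction with each of the 8 lists, and the call was kept with 4 of them and lost with 4. Over all tested probe sets, 152 were called lower on day 3 with no list in the fit. With the macrophage, endothelium, lymphocyte and basal and myoepithelial lists, where the Mal call was lost, 15, 76, 61 and 77 were. With the adipocyte, skeletal muscle, luminal epithelium and fibroblast lists, where it was kept, 240, 154, 270 and 268 were. With the macrophage list the Mal difference was -0.58 (adjusted p = 0.386). With the endothelium list it was -0.59 (adjusted p = 0.119), with the lymphocyte list -0.72 (adjusted p = 0.103) and with the basal and myoepithelial list -0.78 (adjusted p = 0.0817). With the adipocyte list it was -0.75 (adjusted p = 0.0242), with the skeletal muscle list -0.84 (adjusted p = 0.0181), with the luminal epithelium list -0.86 (adjusted p = 0.0166) and with the fibroblast list -0.93 (adjusted p = 0.00786). With arrays weighted by quality and no list it was -1.01 (adjusted p = 0.00318), in a fit that called 381 probe sets lower. With the adipocyte, skeletal muscle, luminal epithelium and lymphocyte lists together it was -0.69 (adjusted p = 0.0591), in a fit that called 121 lower. In whole tissue, fewer cells of a type and less RNA in each cell cannot be told apart.

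**Figure D3:**
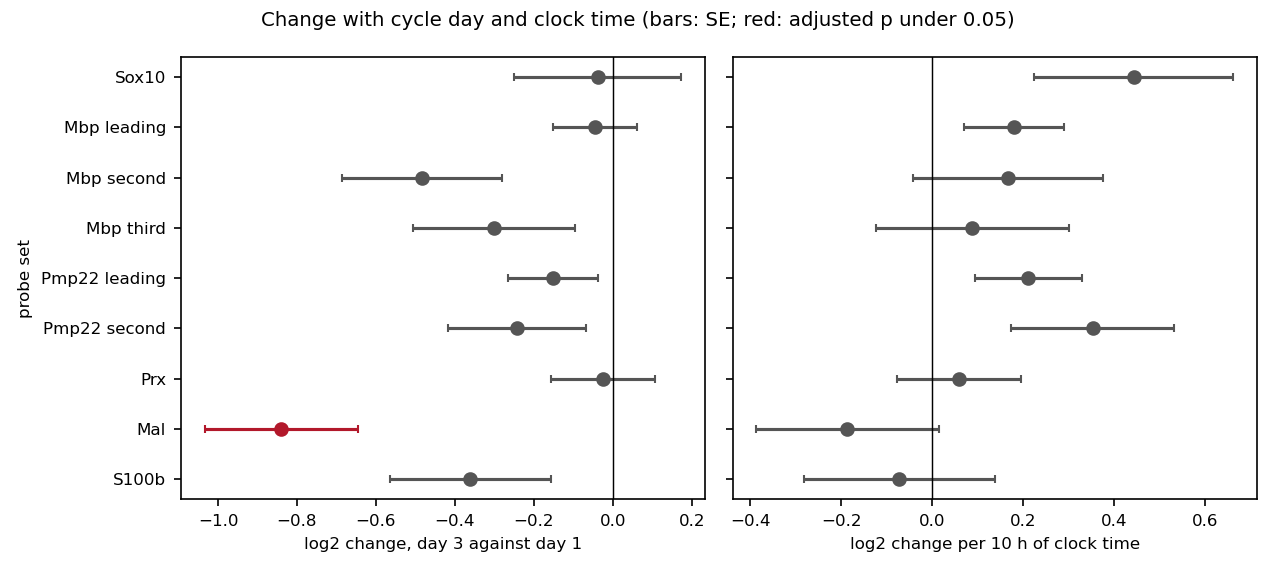
Log2 change with its SE for the 9 probe sets, from day 1 to day 3 (left) and per 10 h of clock time (right), from 1 limma fit to 31 rats. Mal, in red, is the only one past an adjusted p of 0.05, at -0.84 on the left, and none is past it on the right.

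Within the day no member moved past the threshold. Along the clock hour 0 of 9 probe sets were called by limma and 0 had an unadjusted p under 0.05, while 12.6% of tested probe sets had one, and 1.21% were called higher and 0.75% lower toward the evening. The largest slope was that of Sox10, with a log2 difference of 0.44 (SE 0.22) per 10 h (adjusted p = 0.403), and with the adipocyte list mean in the fit it was 0.76 (adjusted p = 0.00205). The fit with that list called 528 of all tested probe sets higher and 361 lower toward the evening, beside 254 and 158 without it. Without the list the second Pmp22 probe set had 0.35 (SE 0.18, adjusted p = 0.422) and Mal -0.19 (SE 0.20, adjusted p = 0.753). A slope that differed from day to day was called for none of the 9 (limma, 0 with an unadjusted p under 0.05) and for 1 probe set of all tested.

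The study's own test, which it named Method 1, fits a piecewise linear curve through the 31 hours and asks how much of a gene's variance the curve keeps. That share was 0.540 for Mal (adjusted p = 0.0982, under the study's false discovery rate of 0.25), and Mal was the only 1 of the 9 called, beside 9.06% of all tested probe sets. The next highest share was that of the second Mbp probe set, 0.316 (adjusted p = 0.617), and the lowest was that of Prx, 0.0884. The median share over all tested probe sets was 0.248. The test reads its p-values from all tested probe sets in 1 fixed reordering of the rats.

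None of the wider Schwann and myelin genes was called. Of the 30 measured genes on the 4 lists, 16 passed the filter, beside 21068 of all 31042 probe sets. Among the 16, limma called 0 across days, in any day comparison or along the clock hour. In each of these, 0 to 2 of the 16 had an unadjusted p under 0.05, beside 5.78% to 13.8% of all tested probe sets. The lowest adjusted p was that of Cnp, at 0.0716: it was higher on day 3 than on day 1 by 0.57 (SE 0.16) on the log2 scale, the opposite direction to Mal. Median log2 differences from day 1 to day 3 were -0.018 for 4 myelin protein genes, -0.12 for 7 lineage regulators and receptors and -0.40 for 3 genes of non-myelinating Schwann cells.

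Between rats, Pmp22, Prx, Mal and S100b varied together, and Sox10 ran against S100b. Of the 15 pairs of leading probe sets, 7 passed an adjusted p of 0.05 by Pearson's r, and the same 7 passed by Spearman's rho (two-sided permutation tests with 100000 resamples, adjusted over the 15 pairs). The share of pairs of other probe sets that pass was not computed, so the count does not set these genes apart from others. The 6 pairs among these 4 genes were positive and made up all of the 7 but 1, and they had a positive r on each of the 4 days taken alone.

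Pmp22 and S100b formed the closest pair. Their r was 0.64 (p = 1.3e-04, adjusted p = 0.00195) and their rho 0.59 (p = 5.9e-04, adjusted p = 0.00820), and without the 2 rats farthest from the median of Pmp22 r was 0.61. Within single days r lay between 0.52 and 0.76.
Pmp22 also followed Prx, at r = 0.58 (p = 6.3e-04, adjusted p = 0.00300) and rho = 0.55 (p = 0.00126, adjusted p = 0.00820). Without those 2 rats r was 0.51, and within days it lay between 0.43 and 0.68.
Pmp22 and Mal had r = 0.57 (p = 8.0e-04, adjusted p = 0.00300) and rho = 0.55 (p = 0.00164, adjusted p = 0.00820). Without 2 rats r was 0.58, and within days it ran from 0.15 on day 2 to 0.79 on day 4.

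Prx and Mal were most alike on day 1, where r was 0.95 over 8 rats, and over all rats r was 0.54 (p = 0.00155, adjusted p = 0.00465) with rho 0.49 (p = 0.00546, adjusted p = 0.0136). Without 2 rats r was 0.43, and on days 2 and 3 it was 0.53 each. Whether day 1 differed from the other days was not tested. Mal with S100b had r = 0.51 (p = 0.00381, adjusted p = 0.00952) and rho = 0.51 (p = 0.00394, adjusted p = 0.0118), and 0.54 without 2 rats. Prx with S100b had r = 0.48 (p = 0.00676, adjusted p = 0.0145) and rho = 0.48 (p = 0.00727, adjusted p = 0.0156), and 0.46 without 2 rats.

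Sox10 and S100b, both used as Schwann cell markers, were opposed. Their r was -0.60 (p = 5.7e-04, adjusted p = 0.00300) and their rho -0.51 (p = 0.00394, adjusted p = 0.0118), and r was -0.54 without 2 rats. The rat of hour 17.6 had the highest Sox10 of all, at 818, and the lowest S100b, at 2595. Within day 1 r was -0.89, within day 2 -0.61 and within day 3 -0.92.
Within day 4 it was 0.32, and without the rat of hour 86.3, in which both genes were at their highest of that day, it was -0.17 over 6 rats. Whether day 4 differed from the other days was not tested. Sox10 with the 4 remaining genes did not pass: r was -0.38 with Pmp22 (adjusted p = 0.0718), -0.17 with Prx, -0.15 with Mal and 0.036 with the leading Mbp probe set. Sox10 with Pmp22 did pass in residuals of the day and hour fit, where r was -0.62 (adjusted p = 8.1e-04), and also, at r = -0.42 (adjusted p = 0.0389), with the values centred on array medians and, at r = -0.41 (adjusted p = 0.0269), by the mean of a gene's probe sets. It passed as well when 1 rat was left out in 5 of 31 cases, with r from -0.44 to -0.41.

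The leading Mbp probe set passed with no other member, with r between 0.036 and 0.31, but in residuals of the day and hour fit it passed with S100b (r = 0.39, adjusted p = 0.0486). The second Mbp probe set followed the leading Pmp22 probe set at r = 0.83, Mal at 0.71, S100b at 0.60 and Prx at 0.57, and it ran against Sox10 at -0.51. With it in place of the first, 13 of the 15 pairs passed instead of 7. The statement that Mbp varied with the other myelin genes thus depended on which of its probe sets was read.

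**Figure D4:**
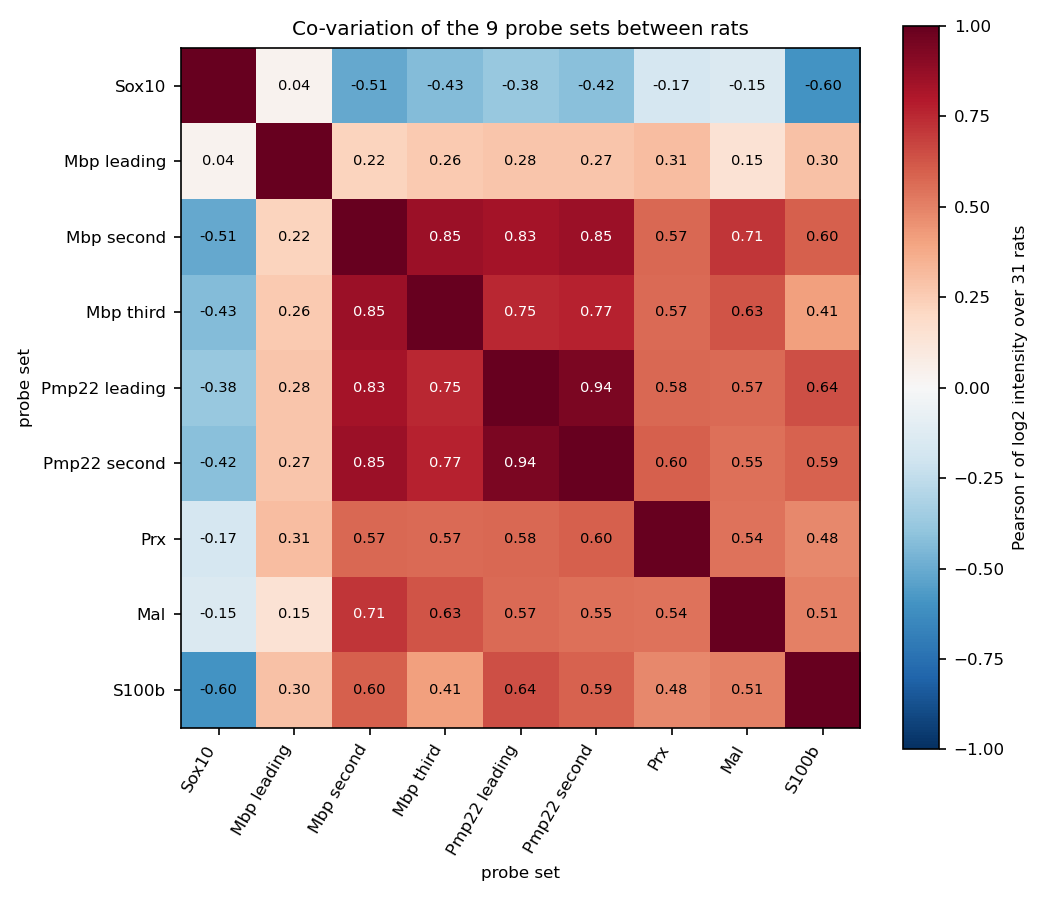
Pearson r of log2 intensity between the 9 probe sets over 31 rats, from -1 (blue) to 1 (red). The Pmp22 probe sets and 2 of the 3 Mbp probe sets form a block with r from 0.75 to 0.94, Sox10 has its lowest r with S100b (-0.60), and the leading Mbp probe set has no r above 0.31.

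For Pmp22 and Mal, a pair that varied together, the 250 bases before the start of the gene (RefSeq, GRCr8) are shown. In both the window lies wholly outside the transcribed part of the annotated gene, as does the Mbp window at chr18:78130402-78130651, which is not shown. Prx, S100b and Mbp also have entries, 5 genes in all, and Sox10 was not matched. The Pmp22 window is chr10:48294682-48294931 on the forward strand, and the Mal window is chr3:135341424-135341673 on the reverse strand. Capitals mark a CCAAT box (CCAAT, or ATTGG on the other strand) in Pmp22 and GC boxes (GGGCGG, or CCGCCC on the other strand) in Mal.
Pmp22: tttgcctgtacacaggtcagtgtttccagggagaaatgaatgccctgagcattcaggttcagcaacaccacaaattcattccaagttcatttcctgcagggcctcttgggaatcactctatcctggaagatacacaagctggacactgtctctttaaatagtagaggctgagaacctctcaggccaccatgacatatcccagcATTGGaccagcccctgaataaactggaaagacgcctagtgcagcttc
Mal: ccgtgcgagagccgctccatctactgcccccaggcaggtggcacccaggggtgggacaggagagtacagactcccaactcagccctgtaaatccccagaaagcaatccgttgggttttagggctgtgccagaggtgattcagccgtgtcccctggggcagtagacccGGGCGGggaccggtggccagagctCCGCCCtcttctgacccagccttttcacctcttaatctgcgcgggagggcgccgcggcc
The windows had different makeup: G and C made up 48.0% of the Pmp22 window and 64.8% of the Mal window, beside a median of 51.2% over all 33469 windows of the table. The CCAAT box of Pmp22 begins 47 bases before the start, and 34.0% of all windows hold 1. The GC boxes of Mal begin 83 and 59 bases before the start, and 30.5% of all windows hold 1. The letters ACAAAG or ACAATG, the core that Sox proteins bind, were in neither window on either strand, and 25.3% of all windows hold them. Of the member windows not shown, only the Mbp window at chr18:78209995-78210244, inside the annotated gene, holds them. There they begin 240, 197 and 162 bases before the start.

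Each member was set beside the mean of marker lists for 8 other components of the gland, 48 relations in all, of which 20 passed an adjusted p of 0.05 by r and 12 of those 20 also by rho. How many other probe sets pass with these lists was not computed. Sox10 followed the luminal epithelium list (11 of 11 genes measured, none near background), at r = 0.76 and rho = 0.75 (p = 1e-05 for both, the smallest the resampling can give; adjusted p = 1.6e-04). Without 2 rats r was 0.70, and within days it lay between 0.56 and 0.93. Of the 11 genes, 8 had a positive r with Sox10, the highest of them Elf5 at 0.91, a factor of the alveolar luminal lineage, and the lowest of all was Esr1, the estrogen receptor of the hormone-sensing lineage, at -0.52.
Sox10 ran against the fibroblast list (r = -0.64, p = 4.0e-05, adjusted p = 4.8e-04, rho = -0.55 with p = 0.00150 and adjusted p = 0.00800). Against the adipocyte list r was -0.57 (p = 7.8e-04, adjusted p = 0.00416) and rho -0.49 (p = 0.00636, adjusted p = 0.0278), and all 10 adipocyte genes had a negative r with Sox10. Within days that r ran from -0.84 to 0.22.

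S100b followed the adipocyte list (10 of 10 measured, none near background), at r = 0.78 and rho = 0.75 (p = 1e-05 for both, adjusted p = 1.6e-04), and within each day r was between 0.77 and 0.88. All 10 adipocyte genes had a positive r with S100b, the highest being Adipoq, the fat cell hormone adiponectin, at 0.89. Pmp22 followed the same list at r = 0.81 and rho = 0.78 (p = 1e-05 for both, adjusted p = 1.6e-04), with 0.67 to 0.94 within days. It also followed the endothelium list, at r = 0.62 (p = 1.9e-04, adjusted p = 0.00152) and rho = 0.61 (p = 4.1e-04, adjusted p = 0.00328), with -0.36 to 0.96 within days. S100b followed that list too, at r = 0.61 (adjusted p = 0.00178) and rho = 0.59 (adjusted p = 0.00372), with -0.18 to 0.95 within days. Past the threshold by both were also Pmp22 with the macrophage list (r = 0.51, rho = 0.54) and the lymphocyte list (r = -0.49, rho = -0.60). So was S100b with the luminal list (r = -0.48, rho = -0.48), with -0.86 to 0.32 within days. Prx followed the adipocyte list at r = 0.50 (p = 0.00433, adjusted p = 0.0173), but rho, at 0.42, missed the threshold (adjusted p = 0.0652).

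Mal did not pass with the adipocyte list (r = 0.33, adjusted p = 0.139). It followed the endothelium list, at r = 0.64 (p = 1.4e-04, adjusted p = 0.00134) and rho = 0.68 (p = 6.0e-05, adjusted p = 7.2e-04), and the macrophage list, at r = 0.60 (p = 4.8e-04, adjusted p = 0.00288) and rho = 0.62 (p = 3.6e-04, adjusted p = 0.00328). Both stayed past the threshold in residuals of the day and hour fit, where r was 0.56 and 0.45. Within the luminal list its r ran from 0.64 with Prom1 to -0.71 with Krt18. The second Mbp probe set followed the adipocyte list at r = 0.73 (adjusted p = 1.2e-04) and the leading one at 0.46 (adjusted p = 0.0266). No member passed with the skeletal muscle list, whose rat means ranged from -4.06 to 2.72. The lists are not independent of each other: over the same rats the adipocyte and luminal lists had r = -0.48.

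**Figure D5:**
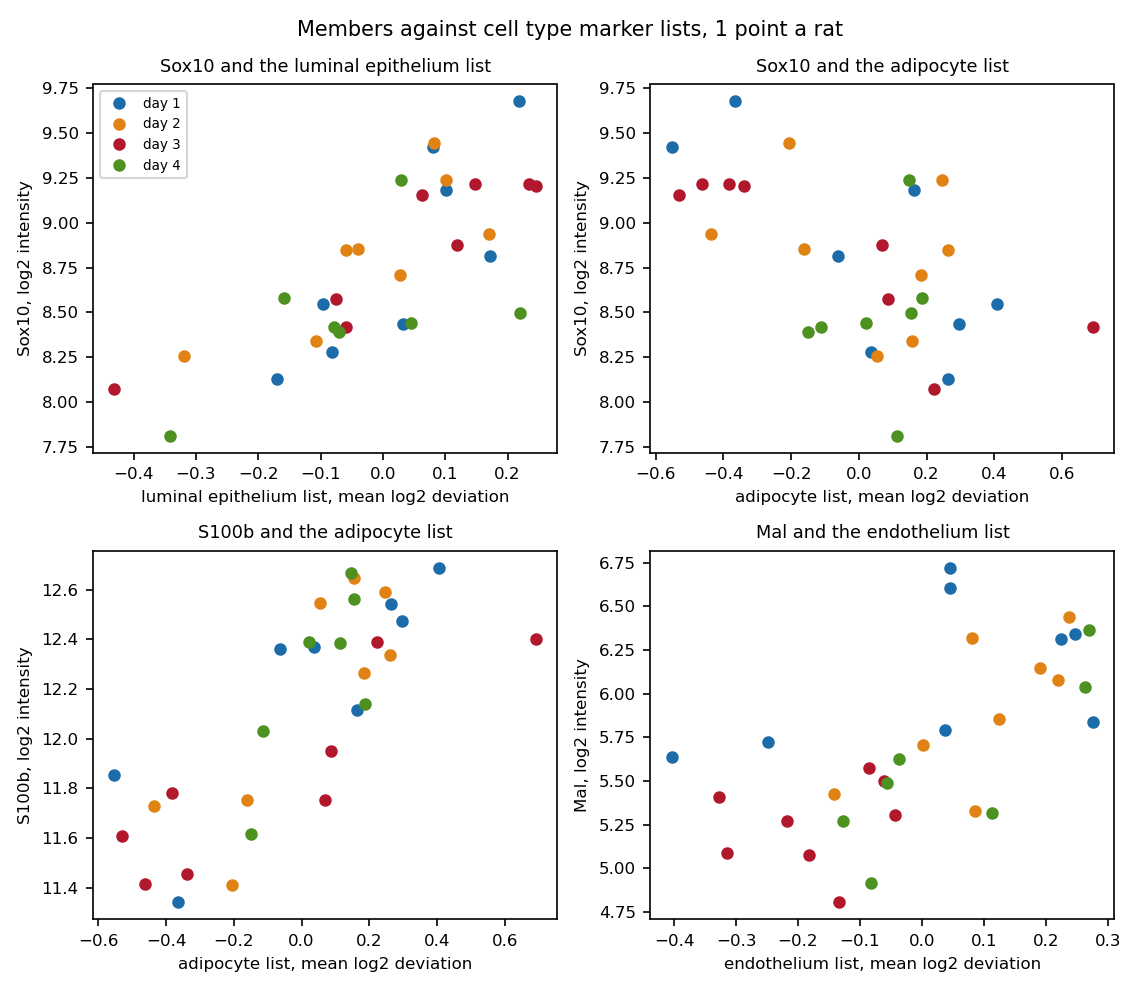
Log2 intensity of Sox10, S100b and Mal against the mean log2 deviation of a marker list, 1 point a rat, coloured by cycle day. Sox10 rises with the luminal epithelium list (r = 0.76) and falls with the adipocyte list (r = -0.57), S100b rises with the adipocyte list (r = 0.78) and Mal with the endothelium list (r = 0.64).

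The genes whose rat-to-rat pattern was most like that of each member are given as a description, by Pearson r over the 31 rats among genes with a single symbol. For Sox10 they were Esrp1 (0.95), an epithelial splicing factor, Limk2 (0.94), a kinase of the actin skeleton, Mapkapk3 (0.93), Camsap3 (0.93), which anchors microtubules in epithelia, and Trim29 (0.92). The most opposed was Ogn (-0.87), a matrix proteoglycan of connective tissue. For S100b they were Sncg (0.92), a synuclein made in fat and sensory neurons, Cd151 (0.91), Mst1 (0.89), Adipoq (0.89) and Aldh2 (0.88).
For Pmp22 the nearest was Ramp2 (0.91), a co-receptor for adrenomedullin in endothelium, followed by Vasn (0.88), Fgfr1 (0.88), Heg1 (0.88) and Septin8 (0.87). Ramp2 was also nearest to the second Mbp probe set (0.87) and to the second Pmp22 probe set (0.91). For Mal they were Smim38 (0.85), Akr1c15 (0.84), Maf (0.82), Nudt4 (0.81) and Ang (0.80). Prx and the leading Mbp probe set had looser company: the nearest to Prx was Adpgk (0.74) and to the leading Mbp probe set Idh1 (0.73).

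Of the 20 genes on the Schwann and myelin lists that were above background, 15 had a positive r with the leading Pmp22 probe set, 14 with S100b, Mal and Prx each, 11 with the leading Mbp probe set and 7 with Sox10. The highest with Pmp22 was Lgi4 at 0.70, the highest with Mal and with S100b was Ngfr, the low-affinity neurotrophin receptor, at 0.67 and 0.51, and the lowest with Pmp22 was Cnp at -0.63. The highest with Sox10 was Gjb1 at 0.65. The median r of the 20 genes was 0.23 with the leading Pmp22 probe set, 0.33 with Mal and 0.21 with S100b and with Prx. It was 0.018 with the leading Mbp probe set and -0.14 with Sox10. These counts are over the same 31 rats, and the 20 genes are not independent of each other. The share of all tested probe sets with a positive r was not computed, so the counts cannot be set against it.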

How the data were processed

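Mammary gland RNA of 32 rats was hybridized to Affymetrix Rat 230 2.0 arrays, 1 rat each. The deposited values are linear intensity values that the authors made from the scanned arrays with GC-RMA, a background model and quantile normalization across arrays, in GeneSpring; no replicates were pooled. Labels and methods differ on the gland taken and on how tissue was kept, which is not settled here. No depth applies to arrays; the 31 arrays used limit the precision. Days and hours come from the labels.

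Probe sets were named by the platform table (20832 with 1 symbol, 436 with several, 9780 with none), and all 9 member probe sets matched the GRCr8 gene table. Log2 intensity was fitted with limma 3.58.1 (R 4.3.3) with cycle day as a factor and clock hour as a slope, on the 21068 probe sets of at least 10 on all 31 arrays, and adjusted over all of them by Benjamini-Hochberg at 0.05. Method 1 was rerun with the study's spline of order 2, 8 basis functions, its fixed permutation and a false discovery rate of 0.25. Correlations were tested with 100000 permutations in Python 3.11.15 with numpy 2.4.6 and scipy 1.17.1. List means are averages of centred log2 values over genes not near background. The scripts were tested on simulated data. The 6 members and the lists were chosen with earlier results of these data known. All probe sets of the members are named. From the lists, the genes called from day 1 to day 3, those needed for a count and examples are named. List genes called only along the clock hour are not named. Up to 5 most similar genes are given for a member. Alternatives covered the filter, the arrays used, normalization, weights, covariates and single rats.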

Additional observations from a re-analysis of the deposited data

Results flagged for a closer look

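In 36 groups of 7 or 8 rats (9 probe sets on 4 days), 1 value lay farther from the rest than the spread of its group allows by Dixon's criterion. It was Sox10 in the rat of hour 86.3 on day 4, at 604 against 383 for the next highest of 7 rats, a gap of 0.583 of the range beside a critical value of 0.568. Chance gives about 1 such value in 20 groups. The same rat also held the highest day 4 values of Prx (90.9), Mal (82.5) and S100b (6505).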

How the results depend on the processing

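No paired analysis was possible, since each rat was killed for its 1 array and none was sampled again on another day. The count of member probe sets called across days was 1 instead of 0 with array weights and with the adipocyte, luminal epithelium or fibroblast list mean as a covariate, and Mal was that probe set. Over all tested probe sets these fits called 385, 340, 210 and 191, beside 121 in the main fit. Along the clock hour the fits with the adipocyte and the luminal list called 528 and 454 probe sets higher and 361 and 289 lower, beside 254 and 158. The member count there was 2 instead of 0 with the adipocyte list (Sox10 at 0.76 and S100b at -0.41 per 10 h) and 1 with the luminal list (the second Pmp22 probe set at 0.54). The count over all day comparisons was 1, then 3 with array weights (Mal from day 1 and from day 2 to day 3, and the second Mbp probe set from day 1 to day 3), and 0 with 4 tissue lists together (adipocyte, skeletal muscle, luminal epithelium, lymphocyte) or with the macrophage, endothelium, lymphocyte or basal and myoepithelial list alone. Method 1 called 1, but 0 with spline order 4 and 0 at a false discovery rate of 0.05. Of the 15 pairs 7 passed, and 13 with the mean of a gene's probe sets or with the second Mbp probe set. Leaving out each rat in turn gave 0 to 1 calls across days (1 without the rat of hour 86.3), 0 to 0 along the clock hour, 0 to 1 in the day comparisons, 0 to 2 by Method 1 (0 without hour 35.5, 57 or 59.8, and 2 without hour 17.6), 7 to 8 pairs, 16 to 21 list relations and 7 to 8 probe sets with a spread above the median.

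Signs turned only in values that had passed no test in the main analysis. From day 1 to day 3 they were, for Prx, 0.13 with 4 tissue lists and 0.097, 0.099, 0.041 and 0.092 with the macrophage, endothelium, adipocyte and lymphocyte lists. For the leading Mbp probe set they were 0.011 with 4 lists, 0.052 with the endothelium list and 7.3e-04 with the adipocyte list. With the macrophage list the third Mbp probe set had 0.022, the leading Pmp22 probe set 0.020 and the second Pmp22 probe set 0.069, and with the endothelium list the leading Pmp22 probe set had 0.026. Sox10 had 0.19 with array weights, 0.031 without clock hour, 0.0038 with the luminal and 0.11 with the fibroblast list. Slopes per 10 h turned to -0.044, -0.066, -0.058 and -0.14 with 4 lists (second, leading and the third Mbp probe set, and Prx) and to -0.12, -0.17 and -0.065 with the adipocyte list (second and the third Mbp probe set, and Prx). For S100b they turned to 0.058, 0.087 and 0.069 with the endothelium, luminal and fibroblast lists. Mbp with Sox10 had r = -0.44 by mean probe sets, -0.068 in residuals and -0.51 by the second Mbp probe set. The first and the last of these passed (permutation test, adjusted p = 0.0166 and 0.0052). Leaving out 1 rat, the day 3 difference ran from -0.087 to 0.020 for the leading Mbp probe set, from -0.089 to 0.043 for Prx and from -0.14 to 0.078 for Sox10, slopes from -0.052 to 0.22 for the third Mbp probe set, from -0.0071 to 0.13 for Prx and from -0.14 to 0.078 for S100b, and Mbp with Sox10 from -0.063 to 0.12. The covariate fits with single lists, the list relations and the second Mbp probe set were added after seeing the data. Method 1 on all 32 arrays was not run, since its permutation has 31 entries. The causes were not tested.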

Other observations

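The array of hour 40, which the study discarded, belongs to no comparison above. On it Sox10 had an intensity of 306, S100b 5000, Mal 72.6, Prx 61.4 and Pmp22 3814 and 733 by its leading and second probe sets. The 3 Mbp probe sets had 465 (leading), 223 (second) and 70.9 (the third). Each of these values lay inside the range of the 31 other arrays.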
